A study of Saccharomyces cerevisiae with 36 samples.

Results

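The change described here is that of wild-type cells growing on a mixture of fructose and palatinose, between mid-log growth and the point 10 hours later (+10h). It rests on 6 of the 36 libraries of the series, chosen by their labels alone: wild-type strain, medium with 0.1% fructose and 0.9% palatinose, 3 libraries at +10h and 3 at mid-log, with the letters A, B and C in each group. The wild-type is FY4, a prototrophic laboratory strain of *Saccharomyces cerevisiae* with no engineered allele. Cells were pre-grown on pyruvate, washed, and inoculated into flasks of Delft minimal medium at 30 °C. The rest of the series holds the same strain in fructose alone, a *gal80Δ* strain made from it in both media, and a harvest at +16h. Transcripts were counted from their 3′ ends, so that a count does not grow with the length of the gene, and values below are CPM, counts scaled to a fixed library total, after TMM normalisation, given for letters A, B and C in that order.

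Palatinose is a disaccharide of glucose and fructose. Yeast takes it up through the α-glucoside carrier Mal11 and cleaves it with the isomaltases, the Ima enzymes, whose genes belong to the *MAL* regulon and are switched on by Mal-type activators. When a preferred sugar runs down, the kinase Snf1 is known to relieve repression by Mig1 and to allow the activators Cat8, Adr1, Hap4 and Sip4 to turn on gluconeogenesis, the glyoxylate cycle and respiration. Slower growth is known to go with less transcription of ribosomal genes. Among these, ribosome assembly genes carry the promoter motifs PAC, bound by Dot6 and Tod6, and RRPE, bound by Stb3. Stress genes are activated by Msn2 and Msn4, which bind the stress response element.

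Promoter stretches of genes from 3 groups show the letters found in many genes of each group; the genes were chosen for carrying them. They were read from the RefSeq reference genome (build R64) in the direction of transcription, and the changes of their genes are given further on. For ribosome assembly genes, which fell, the capitals mark the PAC motif (GATGAG) and the RRPE motif (AAAATTT), each on either strand. The stretches lie at VIII:283391-283450 (minus strand, *GAR1*), VIII:210698-210757 (plus strand, *CIC1*), XI:426099-426158 (plus strand, *MRT4*) and VIII:442017-442076 (plus strand, *DBP8*). The PAC motifs in them end between 111 and 132 bases before the start codon.
GAR1: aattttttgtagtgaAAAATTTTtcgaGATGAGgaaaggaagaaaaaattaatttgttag
CIC1: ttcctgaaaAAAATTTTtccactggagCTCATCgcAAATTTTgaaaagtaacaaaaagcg
MRT4: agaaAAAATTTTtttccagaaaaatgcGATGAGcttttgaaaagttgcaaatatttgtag
DBP8: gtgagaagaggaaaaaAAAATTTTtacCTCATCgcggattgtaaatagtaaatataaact

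Genes known for expression in stationary phase, which rose, are shown with the stress response element (AGGGG, or CCCCT on the other strand) in capitals. The stretches lie at II:126578-126617 (plus strand, *MOH1*), XV:231909-231948 (minus strand, *DDR2*), XIII:16787-16826 (minus strand, *MSC1*) and XV:657098-657137 (plus strand, *DCS2*).
MOH1: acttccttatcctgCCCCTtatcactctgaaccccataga
DDR2: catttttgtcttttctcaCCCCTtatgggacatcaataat
MSC1: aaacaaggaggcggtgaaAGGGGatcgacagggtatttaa
DCS2: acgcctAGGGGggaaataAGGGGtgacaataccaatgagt

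Respiratory chain genes, which rose too, are shown with the CCAAT letters of the Hap2/3/4/5 complex (ATTGG on the other strand) in capitals. The stretches lie at XIII:29871-29910 (minus strand, *NDI1*), VII:144578-144617 (plus strand, *COX13*), XII:225356-225395 (minus strand, *COX12*) and XIV:531562-531601 (plus strand, *COX5A*).
NDI1: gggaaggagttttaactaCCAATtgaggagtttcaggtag
COX13: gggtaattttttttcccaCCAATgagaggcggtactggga
COX12: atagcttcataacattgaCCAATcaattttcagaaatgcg
COX5A: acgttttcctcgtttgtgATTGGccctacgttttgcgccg

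In the 250 bases before the start codon of 5371 genes tested, PAC was present in 16.7%, RRPE in 22.8%, the stress response element in 19.1% and CCAAT in 36.1%. PAC stood before 86% and RRPE before 90.4% of the 136 ribosome assembly genes, and each stood before 84.2% of the 19 genes of RNA polymerases I and III. RRPE alone was frequent before translation factor genes (79.3% of 29) and tRNA synthetase genes (80% of 20), whereas cytosolic ribosomal protein genes carried PAC in 10.3% and RRPE in 26.5%. CCAAT stood before 88.2% of the 17 ATP synthase genes and 73.9% of the 23 respiratory chain genes. The stress response element stood before 50% of the trehalose and glycogen genes, 53.6% of the oxidative stress genes and 40% of the stationary phase genes. It stood before 29.1% of all genes raised, against 12.7% of all genes lowered, and before 39.7% of those raised by more than 2 on the log2 scale. CCAAT stood before 37.6% of all genes raised and 35.3% of all genes lowered, near the 36.1% of all genes. The shares depend on the window. In the 150 bases before the start codon, CCAAT stood before 26.1% of the respiratory chain genes and 35.3% of the ATP synthase genes, against 22.6% of all genes, and the stress response element before 5.56% of the trehalose and glycogen genes, 35.7% of the oxidative stress genes and 20% of the stationary phase genes, against 11.3% of all genes. PAC still stood before 75.7% and RRPE before 69.9% of the ribosome assembly genes, against 10.4% and 14.2% of all genes. A match is a description of these letters in these windows.

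Cultures were denser at +10h. Their optical density at harvest was 1.8, 1.65 and 1.75 at +10h (mean 1.73 ± 0.0764 SD, n = 3), against 0.29, 0.26 and 0.29 at mid-log (0.28 ± 0.0173, n = 3). The ratio of 6.19 corresponds to 2.63 doublings. A two-sided exact permutation test gave p = 0.1, the smallest that 3 against 3 cultures allow. In fructose alone, cultures reached 1.52 ± 0.0289 at +10h (n = 3), so the cultures with palatinose were denser by 0.217 (exact permutation p = 0.1).

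Library totals lay between 6571872 and 10420821 counts at +10h and between 6716003 and 7262282 at mid-log, and 3 counts correspond to at most 0.536 CPM after TMM normalisation in a mid-log library, a floor for counting error only. The first principal component, 79.6% of the variance of the 6 libraries, separated the time points. Mid-log library C stood apart from its group: 113 genes with at least 50 CPM lay there below 0.5 times the level in both A and B, 24 of which were called raised at +10h and 8 lowered. Its correlations with A and B across genes were 0.968 and 0.972, against 0.987 between A and B. At +10h, library C was below 0.5 times the others for 22 genes, 10 of them called raised. Of all genes tested, 24.5% were called raised and 21.2% lowered. Values without mid-log library C, a choice made after seeing the data, are given for named genes whose call changed and for the list counts that moved most. As in any bulk sample, fewer cells expressing a gene and less RNA per cell cannot be told apart. All changes are relative to the other genes of a library through the TMM factors, except where scaling by library size is named. The 3 letters of a group are biological replicates by the study's methods. The p-values of the gene tests rest on a spread within groups estimated over all 36 libraries of the 12 groups and shared in part across genes. They do not measure the spread of these 6 libraries alone.

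Somewhat more genes rose than fell in the fit used here. Of 5479 genes tested, 1342 (24.5%) rose and 1161 (21.2%) fell at +10h and 45.7% changed either way. With DESeq2 the numbers were nearly equal, at 1285 raised and 1269 lowered. The calls come from edgeR's quasi-likelihood test, where a gene had to change by more than 0.5 on the log2 scale in either direction at a Benjamini-Hochberg adjusted p below 0.05. The rises were larger than the falls: 242 genes rose by more than 2 on the log2 scale and 17 fell by more than 2, and beyond 3 the numbers were 111 and 4. The 3 libraries of each time point did not overlap for 1320 of the raised and 1114 of the lowered genes. Among all 5479 genes tested, called or not, 1740 were higher at +10h without overlap and 1580 lower, so a lack of overlap was common. Raised genes together held 26.6%, 25.9% and 24.5% of all counts at +10h, against 7.46%, 7.55% and 7.66% at mid-log. Lowered genes held 36.7%, 36.6% and 38.8% at +10h, against 60%, 58.9% and 60% at mid-log, shares that follow from how these genes were chosen. The median change of all genes was 0.02 with TMM and 0.28 when libraries were scaled by their size alone, and under library size scaling 1929 genes rose and 654 fell, so small falls depend on the scaling.

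The 10 largest rises among genes with at least 20 CPM lay between 6.18 and 7.82 on the log2 scale. *YRO2*, a plasma membrane protein related to Hsp30, had 1998, 1660.1 and 1523 CPM at +10h, against 6.80, 12.9 and 3.55 CPM at mid-log (log2 fold change 7.82, SE 0.39, adjusted p = 2.67e-16). *SIP18* and *GRE1*, hydrophilins that protect cells from drying, had 5123, 5176 and 4756 CPM and 1417, 1266 and 891 CPM at +10h, against 36.4, 55.5 and 28.6 CPM and 15.3, 23 and 9.18 CPM at mid-log. All +10h libraries lay far above all mid-log libraries for these genes, with log2 fold changes of 6.97 and 6.24. *HSP30*, which restrains the plasma membrane proton pump, rose by 6.18, and the uncharacterised *YER053C-A* by 6.56. *YRO2* lies at II:342781-344584 on the plus strand in the authors' annotation of build R64.

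The largest falls included those of nutrient carriers. *HXT2*, a high-affinity hexose transporter at XIII:288049-289942, had 39.4, 46.2 and 39.4 CPM at +10h, against 953, 1053 and 1236 CPM at mid-log, and changed by -4.70 (SE 0.21, adjusted p = 1.26e-17). *GNP1*, the high-affinity glutamine permease, had 14.3, 12.2 and 10.9 CPM at +10h, against 143, 130.0 and 124 CPM at mid-log (log2 fold change -3.41). The groups did not overlap for either carrier. *INA1*, a membrane protein of unknown function, fell to 9.49, 9.32 and 10.6 CPM at +10h, against 105, 117 and 61.4 CPM at mid-log. *UTR2*, a transglycosylase of the cell wall (-2.26), *SFG1*, a putative transcription factor of surface growth (-2.16), and *RRT5*, of unknown function (-2.27), fell too. *URA7*, a CTP synthetase, fell by 2.36, but its interval is covered by a second gene on the same strand over 1918 bases, so that its counts are uncertain. *YGR035C* and *YGR035W-A*, both uncharacterised, fell by 3.11 and 2.53, and overlap on opposite strands by 634 bases. Whether the counting used strand is not stated in the sources used here.

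**Figure D1:**
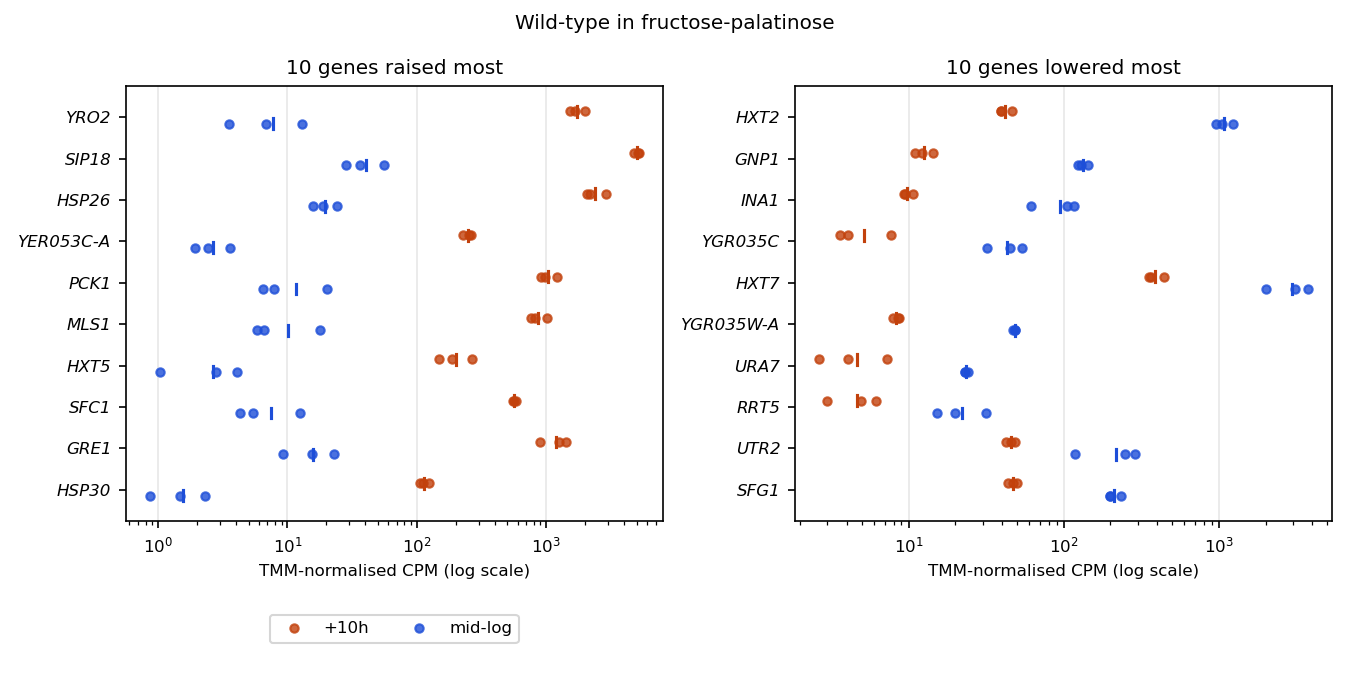
TMM-normalised CPM on a log scale in each library at +10h and mid-log, with a vertical tick at each group mean, for the 10 genes raised most and the 10 lowered most among called genes with a mean of at least 20 CPM. The +10h and mid-log points do not overlap for any of the 20 genes, and *SIP18* reached 5123, 5176 and 4756 CPM at +10h, against 36.4, 55.5 and 28.6 CPM at mid-log.

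The genes of palatinose use rose. Of 11 genes of the palatinose and maltose list with enough counts, 8 rose and 0 fell, where 24.5% of all genes rose, with a median log2 fold change of 1.46 beside 0.02 for all genes. *IMA1*, the major isomaltase gene at VII:1066370-1069020, had 2409, 2322 and 2441 CPM at +10h, against 239, 218 and 317 CPM at mid-log, a level already above the 7.44, 8.35 and 9.68 CPM of fructose cultures at mid-log. *IMA5*, a further isomaltase, had 566, 525 and 581 CPM at +10h, against 208, 166 and 234 CPM at mid-log (log2 fold change 1.46, SE 0.15, adjusted p = 1.99e-09). *MAL11*, the α-glucoside carrier, had 42.6, 39.1 and 37 CPM at +10h, against 9.06, 8.93 and 9.18 CPM at mid-log (log2 fold change 2.12, SE 0.21, adjusted p = 7.26e-10). For these 3 genes the lowest +10h library lay above the highest mid-log library.

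*MAL12*, a maltase gene, had 443, 466 and 476 CPM at +10h, against 142, 118 and 170.3 CPM at mid-log and rose by 1.69, although 24.7% of the 50-base words in its last 300 bases also occur elsewhere in the genome. Its near-copy *MAL32*, with 18.3% of such words shared, was not called, with 15.9, 16.1 and 17.1 CPM at +10h, against 26.1, 18.2 and 22.5 CPM at mid-log (log2 fold change -0.44, adjusted p = 0.0389). *MAL31*, the carrier gene beside *MAL32*, had a log2 fold change of 0.50 at the threshold itself, and passed it without mid-log library C (0.57). Among the activators, *MAL13* of the *MAL1* locus rose to 36.3, 26.3 and 25.8 CPM at +10h, against 7.84, 6.61 and 8.74 CPM at mid-log, while *MAL33* of the *MAL3* locus had 73.7, 70.4 and 69.5 CPM at +10h, against 95.7, 82.7 and 106 CPM at mid-log and was not called. *ZNF1*, an activator of *MAL* and respiratory genes, rose by 0.74. *IMA2* rose by 1.26, and *IMA4* was called at 1.87 on 1.31, 0.68 and 1.23 CPM at +10h, against 0.174, 0.357 and 0.296 CPM at mid-log, with 100% of its words also found elsewhere in the genome, a call that was lost without replicate A (1.51) or C (1.79). *IMA3*, *MPH2* and *MPH3* did not pass the filter on low counts.

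Hexose transporter genes moved in both directions: of 14 tested, 7 rose and 3 fell, with a median of 0.94, and 5 rose and 3 fell without mid-log library C. In all libraries the shares were 50% and 21.4%, beside 24.5% and 21.2% of all genes. *HXT5*, a transporter known from slowly growing cells, had 266, 186 and 147 CPM at +10h, against 2.79, 4.11 and 1.04 CPM at mid-log (log2 fold change 6.27, SE 0.29, adjusted p = 4.91e-17). *HXT6*, a high-affinity transporter, had 334, 317 and 286 CPM at +10h, against 41.8, 29.5 and 28.1 CPM at mid-log, while its neighbour *HXT7* had 356, 441 and 362 CPM at +10h, against 3729, 3086 and 2011 CPM at mid-log. The groups did not overlap for these genes and the signs were opposite, with log2 fold changes of 3.24 for *HXT6* and -2.93 for *HXT7*. Since 17.5% and 10.8% of the words near the 3′ ends of these 2 genes also occur elsewhere in the genome, part of the reads may be assigned to the wrong copy. *HXT3*, a low-affinity transporter, had 32.8, 31 and 32.3 CPM at +10h, against 31.5, 38.7 and 36 CPM at mid-log and was not called. The galactose permease gene *GAL2*, one of the 3 that fell, was called lowered (-0.93), with 18.5, 18.5 and 24 CPM at +10h, against 19.3, 78.9 and 19 CPM at mid-log. Mid-log library B was high and the groups overlapped, and *GAL2* had a log2 fold change of 0.16 without replicate B. *GAL1*, galactokinase, was high in the same library, with 30.9, 26.9 and 33.5 CPM at +10h, against 29.5, 87.9 and 21.9 CPM at mid-log. It was not called (-0.60), but was called lowered without mid-log library C (-0.95).

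Glycolytic genes moved in both directions, often by isoform. Of 17 genes, 4 rose and 5 fell, shares of 23.5% and 29.4%, near the 24.5% and 21.2% of all genes. Their median was -0.08, which was 0.20 under scaling by library size. They held 2.89%, 2.86% and 2.43% of counts at +10h, against 3.11%, 2.76% and 2.43% at mid-log. Enolase genes parted: *ENO1* had 1369.5, 1092 and 1134 CPM at +10h, against 408, 297 and 267 CPM at mid-log (log2 fold change 1.89), whereas *ENO2* had 1829, 1996 and 2246 CPM at +10h, against 5417, 5636 and 4854 CPM at mid-log (-1.39). *TDH1*, the glyceraldehyde-3-phosphate dehydrogenase gene of non-growing cells, had 298, 260.2 and 274 CPM at +10h, against 39.7, 32.3 and 48 CPM at mid-log (2.79). *TDH3*, the gene of the main isoform, had 10098, 9723 and 9023 CPM at +10h, against 15916, 11903 and 13689 CPM at mid-log (-0.53). Its interval is shared with *PDX1* on the same strand over 1781 bases, and the fall was no longer called without replicate A (-0.45) or C (-0.49). Both hexokinase genes fell: *HXK2*, the main hexokinase on glucose and fructose, had 238, 232 and 266 CPM at +10h, against 916, 776 and 615 CPM at mid-log (-1.65), and *HXK1* had 8.32, 9.13 and 11.3 CPM at +10h, against 31.7, 18.6 and 28.1 CPM at mid-log (-1.44), in an interval that *HXK1* shares over 1098 bases with *YFR052C-A*. *TPI1*, triose phosphate isomerase, and *CDC19*, pyruvate kinase, were not called in either direction, and mid-log library C had 276 CPM and 281 CPM for them, against 4236 and 4231 CPM and 2585 and 2319 CPM in mid-log libraries A and B. Without library C their log2 fold changes were 0.10 and -0.77, still not called.

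In the ethanol and glycerol branch, 4 of 11 genes rose and 3 fell, shares of 36.4% and 27.3% beside 24.5% and 21.2% of all genes. *PDC1*, the main pyruvate decarboxylase gene, had 4233, 4549 and 4618 CPM at +10h, against 6305, 6281 and 6672 CPM at mid-log and fell by 0.52, which was -0.49 and below the fold threshold without mid-log library C, and -0.50 and not called without replicate A. *PDC6*, a minor isoform, had 27.6, 24.2 and 18 CPM at +10h, against 1.05, 1.07 and 1.78 CPM at mid-log (log2 fold change 4.12). *ADH1*, the fermentative alcohol dehydrogenase, was not called, with 2207, 2152 and 2201 CPM at +10h, against 3817, 3651 and 1106 CPM at mid-log, where library C again lay below A and B, and its log2 fold change of -0.39 was -0.77 without that library and not called. *ADH2*, the glucose-repressed enzyme that oxidises ethanol, had 429, 442 and 400.1 CPM at +10h, against 28.6, 24.6 and 26.7 CPM at mid-log (log2 fold change 3.99, SE 0.29, adjusted p = 1.56e-12). *GPD1*, the glycerol-3-phosphate dehydrogenase of osmotic stress, rose by 2.88, and *GPD2*, its anaerobic counterpart, fell by 0.68. *ADH4*, a further alcohol dehydrogenase, fell by 0.71.

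Other pairs of related genes parted too. Of 29 pairs, 9 had a member that rose and a member that fell, and in 8 more a single member rose while the other was not called. Over all genes, 24.5% rose, 21.2% fell and 54.3% were not called, so unrelated genes often have unlike calls too. Whether these pairs exceed that was not tested. The 9 include *MIG1* and *MIG2*, both calls lost without mid-log library C, and *TDH1* and *TDH3*, where that of *TDH3* was lost without replicate A or C. *PGM2*, the main phosphoglucomutase, had 99.2, 83.7 and 77.2 CPM at +10h, against 25.8, 19.8 and 25.6 CPM at mid-log, whereas *PGM1* had 21.5, 21.9 and 16.9 CPM at +10h, against 65, 68.9 and 54 CPM at mid-log. *GDH3*, a glutamate dehydrogenase of respiring cells, had 1082, 1138 and 1026 CPM at +10h, against 154, 116 and 131 CPM at mid-log, whereas *GDH1*, its fermentative counterpart, had 1543, 1482 and 1823 CPM at +10h, against 2970.2, 3081 and 2748 CPM at mid-log. For these pairs the groups did not overlap for either gene. The interval of *PGM2* overlaps that of *YKU80* on the same strand over 683 bases. *COX5A* rose (1.17) and *COX5B*, the hypoxic isoform, fell (-0.69), and the ADP/ATP carriers *PET9* (0.68) and *AAC3* (-1.47) did so likewise. The rises of *COX5A* (0.81) and *PET9* (0.50) were not called without mid-log library C, nor that of *COX5A* without replicate C (0.92) or that of *PET9* without replicate B (0.65) or C (0.63). *IDP2*, the cytosolic NADP-dependent isocitrate dehydrogenase, rose by 5.76, and *IDP1*, its mitochondrial form, was not called (-0.14). *CYC7*, a cytochrome c isoform, rose by 2.89, and *CYC1*, the major isoform, was not called (0.57, adjusted p = 0.0898).

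**Figure D2:**
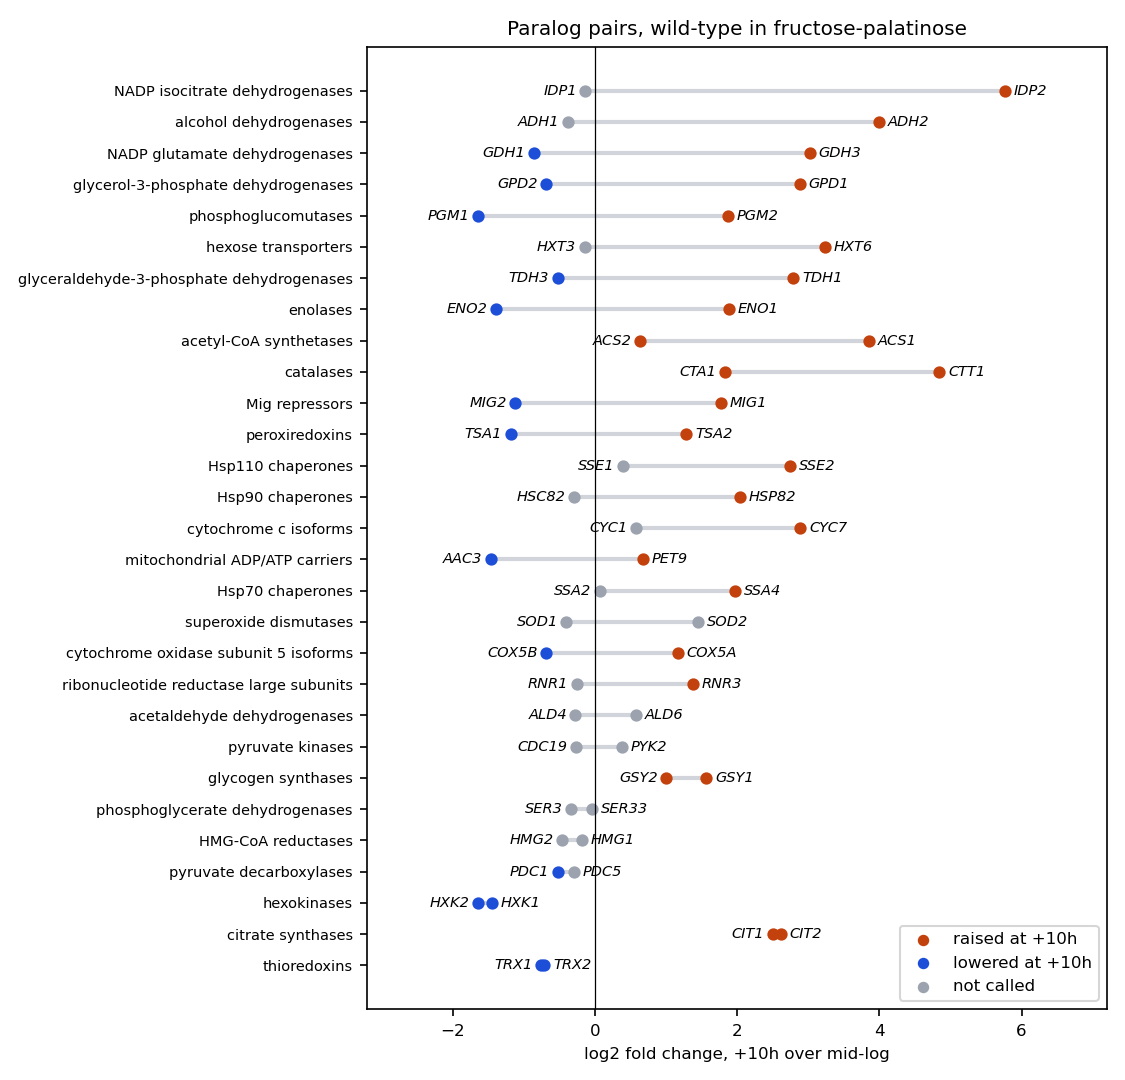
Log2 fold change at +10h over mid-log for both members of 29 paralog pairs, joined by a line and coloured by their call. The longest lines belong to *IDP2* and *IDP1*, *ADH2* and *ADH1*, and *GDH3* and *GDH1*, with differences of 5.90, 4.38 and 3.88, and the shortest to the thioredoxin genes *TRX2* and *TRX1*, with 0.05.

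Gluconeogenesis and the glyoxylate cycle rose furthest. Of 20 genes, 18 rose and 0 fell, where 24.5% of all genes rose, with a median log2 fold change of 3.99. Together they held 2.18%, 2.16% and 2.07% of counts at +10h, against 0.18%, 0.164% and 0.179% at mid-log. *PCK1*, phosphoenolpyruvate carboxykinase, had 1208, 905 and 979 CPM at +10h, against 7.84, 20.4 and 6.51 CPM at mid-log (log2 fold change 6.49, SE 0.29, adjusted p = 2.55e-17). *ICL1*, isocitrate lyase, had 6766, 7866 and 7259 CPM at +10h, against 118, 176 and 133 CPM at mid-log, and *MLS1*, malate synthase, had 1013, 824 and 757 CPM at +10h, against 6.62, 17.9 and 5.77 CPM at mid-log. The log2 fold changes of these glyoxylate cycle genes were 5.68 and 6.43, and mid-log library B had the highest of the mid-log values in all 3 genes. *SFC1*, the mitochondrial succinate and fumarate carrier, rose by 6.26. *CRC1*, the mitochondrial carnitine carrier, rose by 5.19, and *ACS1*, the acetyl-CoA synthetase of respiring cells, by 3.86. *ALD4* and *ALD6*, acetaldehyde dehydrogenases, were the 2 genes of the list that were not called (-0.27 and 0.58). Peroxisomal and fatty acid oxidation genes rose as well, in 16 of 23 cases with 0 falls and a median of 0.91. *POT1*, thiolase of β-oxidation, had 56.5, 77.4 and 63.5 CPM at +10h, against 5.05, 3.39 and 3.70 CPM at mid-log, and *PEX21*, a peroxisomal import factor, rose by 1.32.

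Respiration genes rose across the pathway. In the TCA cycle 15 of 21 genes rose and 1 fell, with a median of 1.51, where 24.5% of all genes rose. In the respiratory chain 20 of 23 rose and 1 fell, with a median of 0.95. *CIT1*, mitochondrial citrate synthase, had 1767, 1859 and 1575 CPM at +10h, against 349, 337 and 235 CPM at mid-log (log2 fold change 2.50, SE 0.31, adjusted p = 8.98e-08). *ACO1*, aconitase, had 2438, 2889 and 2714 CPM at +10h, against 758, 771 and 713 CPM at mid-log, and *MDH1*, mitochondrial malate dehydrogenase, had 2645, 3233 and 4003 CPM at +10h, against 828, 935 and 1131 CPM at mid-log. The +10h libraries lay above all mid-log libraries for these genes. *CIT3*, a minor citrate synthase, rose by 3.44. TCA cycle genes held 1.89%, 1.86% and 1.95% of counts at +10h, against 0.682%, 0.662% and 0.744% at mid-log.

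*NDE2*, an external NADH dehydrogenase, had 145, 112 and 73.2 CPM at +10h, against 5.05, 5.18 and 4.15 CPM at mid-log and the largest rise of the respiratory chain list (4.52), and overlaps a gene on the opposite strand over 1788 bases. *COX13* and *COX8*, subunits of cytochrome c oxidase, had log2 fold changes of 1.44 and 0.54, with 3691, 5409 and 4927 CPM at +10h, against 2147, 2050.5 and 964 CPM at mid-log for *COX13*, and *COX8* was not called without replicate C (0.49). *NDI1*, the internal NADH dehydrogenase, and *COX12*, a further oxidase subunit, both shown above for their promoters, rose by 1.63 and 1.38. The count of raised respiratory chain genes was 15 without mid-log library C and 13 without replicate C at both times. *COX5A*, for example, had 105 CPM in mid-log library C, against 346 and 250.2 CPM in A and B. ATP synthase genes rose in 8 of 17 cases (47.1%, beside 24.5% of all genes), with 0 falls and a median of 0.52, and in 16 of 17 under scaling by library size. *STF2*, which stabilises the inhibitor of the ATP synthase, rose by 2.26, and *ATP1*, the α subunit, by 0.55, not called without replicate A (0.56), replicate C (0.49) or mid-log library C alone (0.46). *ATP19*, a small subunit, was not called (0.26).

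Most storage and stress genes rose. Every one of the 20 stationary phase genes rose, with a median of 2.82, and their share of counts was 1.43%, 1.29% and 1.13% at +10h, against 0.0793%, 0.0678% and 0.0859% at mid-log. *DDR2*, a stress gene shown above with its promoter, had 3249, 2854 and 2089.7 CPM at +10h, against 278, 191 and 209 CPM at mid-log. *MOH1*, *MSC1* and *DCS2*, whose promoters are shown with it, rose by 5.53, 2.59 and 2.54. *SNO1*, a gene of vitamin B6 synthesis that overlaps its partner *SNZ1* on the opposite strand over 825 bases, had 81, 85 and 77 counts at +10h, against 0 counts in every mid-log library, and was at least 17.4-fold higher against a floor of 3 counts per library. The median of the list was the same with *SNO1* at this bound. Chaperone genes rose in 16 of 23 cases with 0 falls and a median of 1.75. *HSP26*, a small heat shock protein, had 2899.5, 2080.3 and 2176 CPM at +10h, against 15.7, 24.1 and 19 CPM at mid-log (log2 fold change 6.93, SE 0.32, adjusted p = 4.91e-17). *HSP12*, a membrane-stabilising protein, had 14679, 13029 and 12868 CPM at +10h, against 4849, 4088 and 3156 CPM at mid-log (1.75). *SSA1*, a cytosolic Hsp70, had 4266, 4878 and 3857 CPM at +10h, against 1584, 1472 and 305 CPM at mid-log (1.95), a call that was lost without replicate C (1.58). Of the Hsp90 genes, the inducible *HSP82* had 644, 631 and 767 CPM at +10h, against 143, 147 and 206 CPM at mid-log (2.04), while the constitutive *HSC82* was not called (-0.30).

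Trehalose and glycogen genes rose in 13 of 18 cases and 1 fell, with a median of 1.27. *TPS1*, trehalose-6-phosphate synthase, had 208, 209 and 152 CPM at +10h, against 85.4, 61.1 and 91.7 CPM at mid-log, and *TSL1*, a regulatory subunit of that enzyme, had 68.4, 58.8 and 44.1 CPM at +10h, against 6.45, 7.14 and 4.74 CPM at mid-log. Glycogen synthase genes *GSY1* (1.57) and *GSY2* (1.00) both rose, whereas *UGP1*, UDP-glucose pyrophosphorylase, was not called (0.05). The defence against oxidants was mixed, with 13 of 28 genes raised and 6 lowered, shares of 46.4% and 21.4% beside 24.5% and 21.2% of all genes. *CTT1*, the cytosolic catalase, had 394, 315 and 235 CPM at +10h, against 9.76, 12.3 and 10.8 CPM at mid-log (log2 fold change 4.84, SE 0.25, adjusted p = 4.67e-16), and *CTA1*, the peroxisomal one, rose by 1.83. *TSA1*, the main peroxiredoxin gene, which overlaps *USA1* on the same strand, fell to 1202, 924 and 977 CPM at +10h, against 2611, 2129 and 2329 CPM at mid-log. The thioredoxin reductase gene *TRR1* (-1.33), the thioredoxin genes *TRX1* (-0.76) and *TRX2* (-0.71), and the peroxiredoxin gene *AHP1* (-0.96) fell. *SOD1*, a superoxide dismutase, had 2701, 2637 and 2636 CPM at +10h, against 3608, 3069.6 and 3882 CPM at mid-log and was not called.

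**Figure D3:**
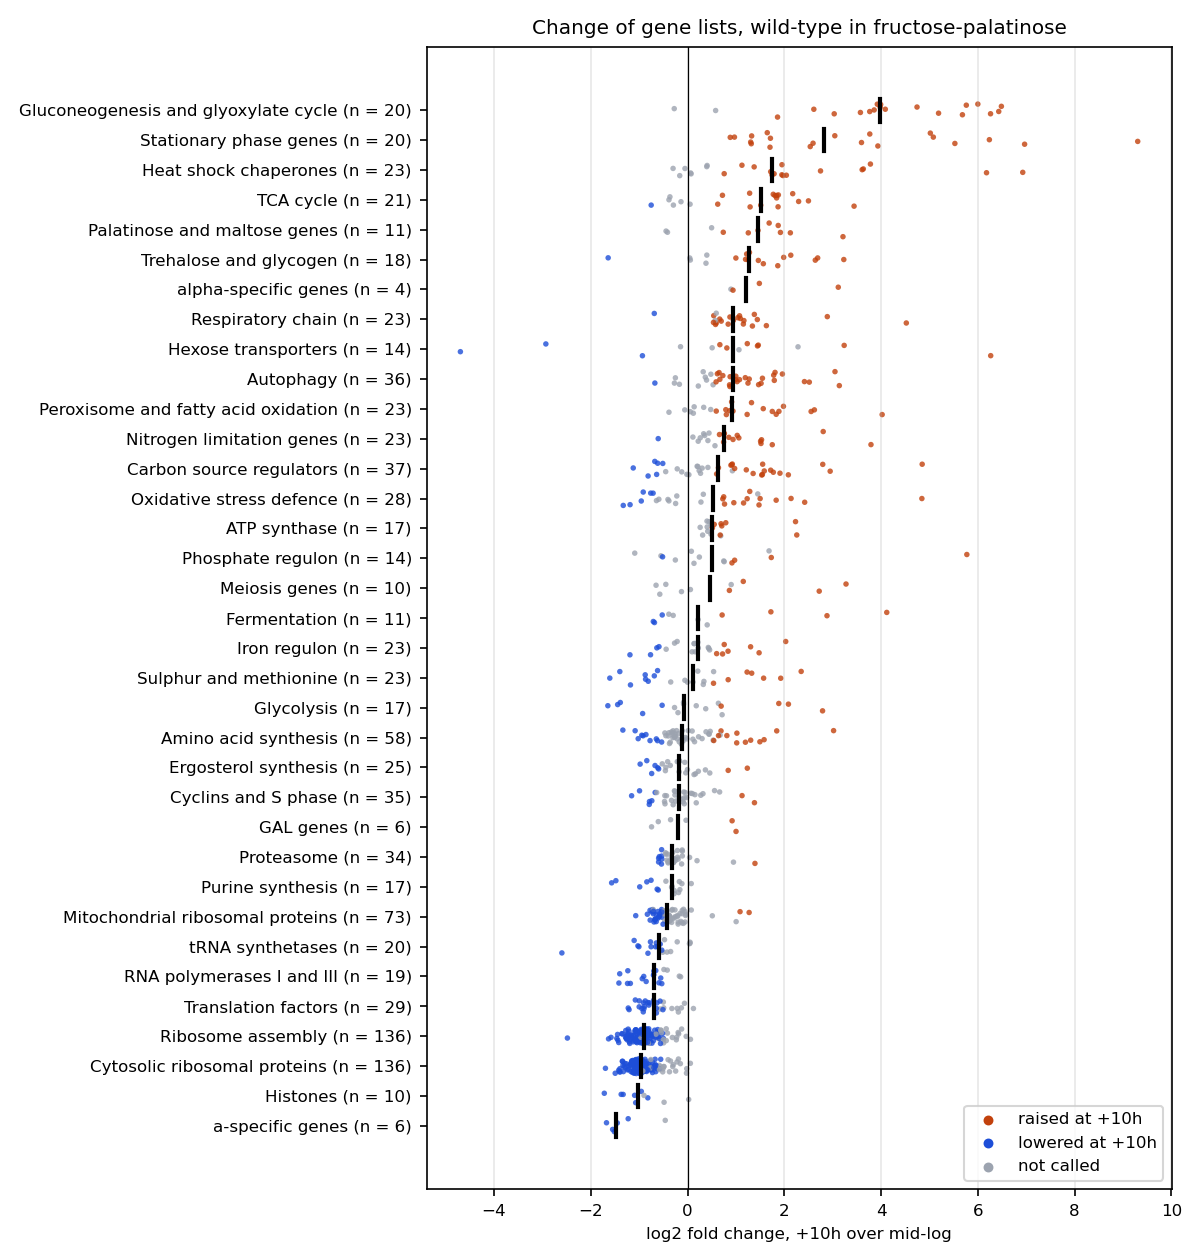
Log2 fold change at +10h over mid-log of every tested gene in 35 lists, one point a gene coloured by its call, with a black bar at the median of each list and the number of tested genes in brackets. Medians run from 3.99 for gluconeogenesis and the glyoxylate cycle to -1.48 for a-specific genes. The point farthest right is *SNO1*, whose mid-log counts were 0, so that its position depends on the prior count of the fit.

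Genes of protein synthesis fell. Of 136 cytosolic ribosomal protein genes, 112 fell and 0 rose, with a median of -0.96, where 21.2% of all genes fell. Their share of all counts was 18.3%, 18.2% and 19.1% at +10h, against 32.5%, 30.4% and 26.9% at mid-log, the largest share of any list. *RPL41A* had 9641, 11105 and 10609 CPM at +10h, against 27487, 24088 and 23723 CPM at mid-log (-1.26), and *RPS12* had 5812, 7620.0 and 7627 CPM at +10h, against 15449, 13540 and 11438 CPM at mid-log (-0.94). *RPS20*, the member that fell most, had 183, 145 and 147 CPM at +10h, against 621, 478 and 439 CPM at mid-log (log2 fold change -1.70, SE 0.31, adjusted p = 3.50e-05). The groups did not overlap for these subunits of the large and small ribosomal particles.

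Ribosome assembly genes fell in 116 of 136 cases with 0 rises and a median of -0.89. *GAR1*, a protein of the small nucleolar particles that modify rRNA, had 658, 760.0 and 768 CPM at +10h, against 2167, 2158 and 2218 CPM at mid-log (log2 fold change -1.58, SE 0.20, adjusted p = 1.43e-07). *CIC1*, *MRT4* and *DBP8*, whose promoters are shown with it and which act in assembly of the ribosomal particles, fell by 1.46, 1.45 and 1.42. *DBP2*, an RNA helicase, was not called, with 1546, 2147 and 1812 CPM at +10h, against 4916, 3517 and 2305 CPM at mid-log, but passed without mid-log library C (-1.20). *SSF1*, an assembly factor, had the lowest value of the list (-2.48) on counts below 3 CPM and with overlapping groups, and its interval overlaps *HTD2* on the same strand over 1141 bases. It was not called without replicate B (-1.24) or C (-2.42). RNA polymerase I and III genes fell in 15 of 19 cases, with *RPA12* at 87.7, 67.8 and 73 CPM at +10h, against 190.1, 207 and 213 CPM at mid-log, and *RPA34* fell by 1.23.

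Translation factor genes fell in 20 of 29 cases, tRNA synthetase genes in 12 of 20 and mitochondrial ribosomal protein genes in 27 of 73, with 2 rises in the last. The shares that fell were 69%, 60% and 37%, beside 21.2% of all genes. *TEF4*, a subunit of elongation factor 1B, had 591, 693 and 692 CPM at +10h, against 1648, 1681 and 1294 CPM at mid-log (log2 fold change -1.23, SE 0.15, adjusted p = 7.15e-08). *TEF1* and *TEF2*, which encode the same elongation factor 1A, fell by 0.63 and 0.57, and 52.2% and 60.2% of their last words also occur elsewhere in the genome. Neither was called without replicate A (-0.43 and -0.41), nor *TEF1* without replicate B (-0.59). *DED81*, asparaginyl-tRNA synthetase, had 525, 524 and 461 CPM at +10h, against 933, 731 and 903 CPM at mid-log. *GRS1*, glycyl-tRNA synthetase, had under 3 CPM in every library and overlaps a gene on the same strand over 2106 bases, so that its value of -2.60 is uncertain. *MRP13*, of the mitochondrial ribosome, fell by 1.07. The scaling bore on these lists: by library size alone, 8 RNA polymerase genes, 6 synthetase genes and 4 mitochondrial ribosomal protein genes fell.

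**Figure D4:**
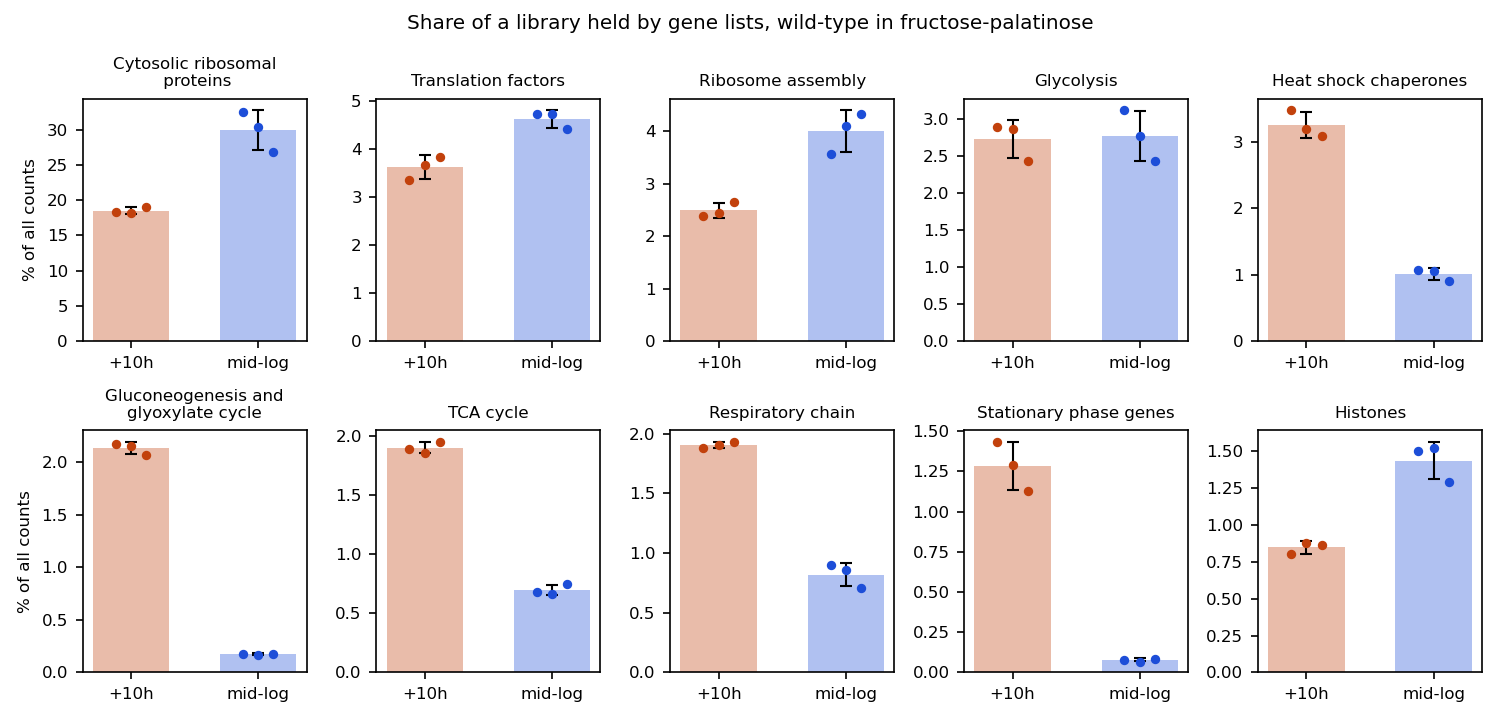
Share of all counts of a library held by 10 gene lists at +10h and mid-log, as bars at the mean with SD (n = 3) and a point for each library, each panel with its own axis from 0. Cytosolic ribosomal protein genes held 18.2% to 19.1% at +10h, against 26.9% to 32.5% at mid-log, while stationary phase genes held 1.13% to 1.43% at +10h, against 0.0678% to 0.0859% at mid-log.

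Histone genes fell in 7 of 10 cases (70%, beside 21.2% of all genes) with a median of -1.01. *HTA2*, histone H2A, had 465, 489 and 553 CPM at +10h, against 1702, 1729 and 1534 CPM at mid-log (log2 fold change -1.72, SE 0.14, adjusted p = 2.76e-11), and *HHT2*, histone H3, had 2471, 3163 and 2919 CPM at +10h, against 6190.4, 5813 and 6249.6 CPM at mid-log (-1.09). The groups did not overlap. Of 35 cyclin and S phase genes, 2 rose and 6 fell, shares of 5.71% and 17.1% beside 24.5% and 21.2% of all genes. Their median was -0.18 (0.07 by library size), and 27 were not called. *CLB2*, the main mitotic cyclin, had 7.59, 10 and 7.98 CPM at +10h, against 23, 18.2 and 16.1 CPM at mid-log (-1.16). *POL1*, the catalytic subunit of DNA polymerase α, had 129, 190.4 and 217 CPM at +10h, against 161, 172 and 210.4 CPM at mid-log, and *RNR1*, a large subunit of ribonucleotide reductase, had 239, 289 and 274 CPM at +10h, against 332, 347 and 282 CPM at mid-log, and the groups overlapped for both. *RNR3*, the damage-inducible subunit, rose by 1.38.

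Autophagy genes rose in 26 of 36 cases (72.2%, beside 24.5% of all genes) and 1 fell, with a median of 0.94. *ATG1*, the kinase that starts autophagy, had 131, 156 and 93.9 CPM at +10h, against 11, 16.4 and 15.8 CPM at mid-log (log2 fold change 3.14, SE 0.21, adjusted p = 3.02e-13), and *ATG8*, the ubiquitin-like protein of the autophagosome, had 226, 215 and 240.3 CPM at +10h, against 34.9, 42.9 and 49.8 CPM at mid-log. *ATG23*, a peripheral membrane protein of the pathway, was the member that fell (-0.68). Proteasome genes had a median of -0.31, with 1 raised and 7 lowered of 34, a share of 20.6% beside the 21.2% of all genes that fell. Without mid-log library C 3 were lowered, and 0 when libraries were scaled by size. The raised gene was *RPN4*, the transcriptional activator of the proteasome, with 108, 128 and 130.4 CPM at +10h, against 52.6, 52.3 and 34.6 CPM at mid-log. Genes held down by good nitrogen sources rose in 14 of 23 cases (60.9%, beside 24.5% of all genes) and 1 fell, with a median of 0.75. *UGA4*, the γ-aminobutyrate permease, had 66.8, 79.3 and 74.3 CPM at +10h, against 6.45, 5.89 and 3.70 CPM at mid-log (3.79), and *DAL4*, the allantoin permease, had 39.8, 45.1 and 51.2 CPM at +10h, against 14.6, 16.2 and 16.9 CPM at mid-log (1.51). *DAL7*, a malate synthase of allantoin use, was the one that fell (-0.61), no longer called without replicate A (-0.55) or B (-0.56), and *GAP1*, the general amino acid permease, and *MEP2*, an ammonium carrier, were not called (0.57 and 0.44).

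Regulators of the carbon source response moved in both directions. Of 37 genes, 19 rose and 6 fell, where 24.5% and 21.2% of all genes did, and without mid-log library C 16 rose and 3 fell. *SIP4*, a Snf1-dependent activator of gluconeogenic genes, had 38.2, 34.1 and 30.2 CPM at +10h, against 1.05, 2.14 and 0.444 CPM at mid-log (log2 fold change 4.85, SE 0.31, adjusted p = 1.11e-13). *CAT8*, which activates *SIP4* and the same genes, had 119, 140.2 and 146 CPM at +10h, against 41.6, 42.9 and 50.5 CPM at mid-log (1.59), and *HAP4*, the limiting subunit of the Hap complex that binds CCAAT, had 749.5, 788 and 672 CPM at +10h, against 223, 243 and 297 CPM at mid-log (1.53). The groups did not overlap for these activators. *HAP3* (0.64) rose and *HAP2* was not called (0.20), and *HAP5* was called (0.93) but not without mid-log library C (0.96) or without replicate B (0.74) or C (0.91). *ADR1*, the activator of *ADH2* and peroxisomal genes, had 23.4, 13.4 and 13.9 CPM at +10h, against 9.24, 5.89 and 6.51 CPM at mid-log (1.21). *MSN4*, an activator through the stress response element, had 71.2, 83.7 and 50 CPM at +10h, against 24, 21.8 and 16.6 CPM at mid-log (1.72), and *MSN2*, its partner, was called at 1.55 but not without mid-log library C (1.13) or replicate C (1.38).

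*SNF1*, the kinase itself, had 68.7, 63.2 and 66.8 CPM at +10h, against 59.9, 64.1 and 70.8 CPM at mid-log and was not called, while of its β subunits *SIP2* rose (1.55), *GAL83* fell (-0.62) and *SIP1* was not called (0.24). *SNF4*, the γ subunit, fell by 0.64. The falls of *GAL83* (-0.48) and *SNF4* (-0.45) were below the fold threshold without mid-log library C, and that of *GAL83* also without replicate C (-0.49). *MIG1*, the repressor of glucose-repressed genes, was called raised (1.77) on 3.65, 3.88 and 1.23 CPM at +10h, against 0.523, 1.61 and 0.444 CPM at mid-log, where the groups overlap, and *MIG2* was called lowered with 33.3, 23.8 and 14.2 CPM at +10h, against 39.6, 40.2 and 74.2 CPM at mid-log (-1.12). Both calls were lost without mid-log library C, with 1.44 and -0.75, that of *MIG1* also without replicate A (1.37) and that of *MIG2* without replicate C (-0.49). *NRG1*, a repressor that answers to Snf1, had 10.2, 7.67 and 12.3 CPM at +10h, against 1.39, 2.32 and 0.296 CPM at mid-log, and *XBP1*, a repressor of cyclin genes in quiescent cells, had 24.2, 17.8 and 13.4 CPM at +10h, against 2.44, 4.46 and 1.185 CPM at mid-log. Their log2 fold changes were 2.95 and 2.79. *USV1* (1.36) and *GSM1* (1.91), zinc cluster or zinc finger proteins of respiratory growth, *HMS1* (2.08), a pseudohyphal growth factor, *RIM15* (0.92), a kinase of quiescence, and *SFP1* (0.97), an activator of ribosomal genes, rose. *RGT1* (0.60), the repressor of hexose transporters, and *GIS1* (0.90), an activator of stationary phase genes, were called, but *RGT1* not without replicate A (0.44) or B (0.56) and *GIS1* not without any one replicate (0.81 to 1.01). *MTH1* (-0.51) and *STD1* (-0.68), corepressors with Rgt1, and *SUC2*, invertase (-0.82), fell, but the calls of *MTH1* (-0.45) and *STD1* (-0.51) were lost without replicate B. The remaining members, *MIG3*, *REG1*, *GLC7*, *NRG2*, *RDS2*, *ERT1*, *TYE7*, *GCR1* and *GCR2*, were not called, with values between -0.45 for *RDS2* and 0.93 for *MIG3*, which was called raised without mid-log library C (1.38).

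Marker genes of strain and cell type were measured in the same libraries. *GAL80*, absent from the mutant, had 74.1, 64.4 and 59.8 CPM at +10h, against 76.7, 55 and 70.6 CPM at mid-log. Of 6 a-specific genes, 5 fell (83.3%, beside 21.2% of all genes). Their summed share was 0.131% to 0.158% of counts at +10h, against 0.288% to 0.361% at mid-log. *MFA2*, which encodes the a-factor pheromone, had 641, 597 and 600.0 CPM at +10h, against 2017, 1501 and 1731 CPM at mid-log, and *BAR1*, the protease against α-factor, had 27.9, 29.5 and 29.4 CPM at +10h, against 93.8, 90.9 and 92.7 CPM at mid-log. The 4 α-specific genes, of which 3 rose (75%, beside 24.5% of all genes), together held 0.0037% to 0.00438% at +10h, against 0.00121% to 0.00128% at mid-log. *MF(ALPHA)1*, the α-factor gene, had 10.8, 8.25 and 6.04 CPM at +10h, against 1.22, 1.07 and 0.592 CPM at mid-log. Of 10 meiosis genes 4 rose (40%, beside 24.5% of all genes) and 0 fell, among them *IME1*, the inducer of meiosis, with 4.96, 5.44 and 1.33 CPM at +10h, against 0.174, 0.536 and 0.444 CPM at mid-log, and *NDT80*, a meiotic activator with 17.9% of its last words also found elsewhere in the genome (1.15). Counts were low: 3 of the 10 had at least 10 counts in every library, and 1 of those rose. With DESeq2 4 rose and 1 fell. The 10 genes held 0.00615% to 0.00733% at +10h, against 0.00354% to 0.00399% at mid-log, and whether other cell types took part was not tested.

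Cells of the same strain in fructose alone, in 6 other libraries, were followed over the same time without palatinose. There 1596 genes (29.1%) rose and 1427 (26.0%) fell at +10h relative to mid-log, 55.2% in all. Of the genes raised with palatinose 87.1% (1169) were raised in fructose too, which is 73.2% of those raised there, and of the lowered genes 86.1% (1000) were lowered in both, 70.1% of those lowered in fructose. The log2 fold changes of the media correlated with r = 0.916 across genes, which are not independent replicates. The change with palatinose was smaller, with a median size of 0.514 on the log2 scale, against 0.645 in fructose alone. In fructose, +10h library B lay below 0.5 times A and C for 233 genes with at least 50 CPM. With palatinose, 65 of them were called raised and 27 lowered, where 24.5% and 21.2% of all genes were. Fructose mid-log library A lay above 2 times both others for 81 genes, and fructose mid-log library C below 0.5 times both others for 42.

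The difference between the media was tested as an interaction, and 170 of 5479 genes (3.10%) passed, 96 with a more positive change with palatinose and 74 with a more negative one. Without adjustment, 904 genes had an unadjusted p below 0.05. These counts depend on the libraries: they were 36 and 17 when fitted on the groups compared alone, between 10 and 66 more positive and between 9 and 57 more negative without one replicate letter, and 71 and 40 without fructose +10h library B. A difference named below without a note on replicates may not be called in these settings either.

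Of the 11 palatinose and maltose genes, 4 had a more positive change with palatinose, where 1.75% of all genes did. *IMA1* had a log2 fold change of 3.21 with palatinose, against -0.32 in fructose, a difference of 3.53 (adjusted p = 6.71e-08), and in fructose its levels were 6.41, 7.65 and 6.42 CPM at +10h, against 7.44, 8.35 and 9.68 CPM at mid-log. *MAL12* changed by 1.69 with palatinose, against -1.38 in fructose. It is one of 3 genes called raised with palatinose and lowered without, along with *HPF1*, a cell wall mannoprotein (0.63 and -1.16), and *YJL218W*, an acetyltransferase-like protein (0.74 and -0.54), both named after their values were seen. *IMA5* (difference 1.62), *MAL11* (1.52) and *YHR210C*, a galactose mutarotase-like gene (1.26), followed the same way. *DAL4* rose by 1.51 with palatinose, against -0.50 in fructose, a difference that was not called without replicate A (1.80) or B (1.85). Of the 23 nitrogen genes, 7 had a more positive change with palatinose and 1 a more negative one, and *MEP2* differed by 1.69.

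Of the 35 cyclin and S phase genes, 9 had a more positive change with palatinose, and of the 10 histone genes 2 did, where 1.75% of all genes did. The cyclin and S phase genes included *RNR1*, with -0.26 against -2.01, and *POL1*, with -0.02 against -0.98. *DSE2*, a wall-degrading enzyme made by daughter cells, changed by -0.92 with palatinose (-0.68 and not called without replicate A) against -3.34 in fructose, and the histone gene *HTA2* by -1.72 against -2.92. *INA1* fell by 3.26 with palatinose and by 5.87 in fructose. The hexokinase gene *HXK2* (difference 1.02) and the enolase gene *ENO2* (1.00) fell less with palatinose too. Of the 136 cytosolic ribosomal protein genes and the 136 ribosome assembly genes, 0 differed between the media, with medians of -0.96 and -0.89 with palatinose, against -1.24 and -1.07 in fructose.

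Gluconeogenic genes rose less with palatinose: 10 of 20 had a more negative change, where 1.35% of all genes did. The list's median was 3.99 with palatinose, against 4.94 in fructose, and its share of counts at +10h was 2.07% to 2.18%, against 3.29% to 3.74% in fructose. *PCK1* had 1208, 905 and 979 CPM at +10h with palatinose, against 2069.7, 2059.8 and 1964 CPM in fructose at +10h, and its change differed by -1.30 (adjusted p = 0.0344). *SIP4* reached 38.2, 34.1 and 30.2 CPM with palatinose, against 94.4, 69.2 and 74.6 CPM in fructose, a difference of -2.28 between the changes that was not called without any one replicate letter (-2.95 to -1.89). Among the single genes named for their differences, *BAP3*, a permease gene for branched-chain amino acids, was not called with palatinose (0.49) and rose by 3.05 in fructose. *DIP5*, for acidic amino acids (0.16 against 2.22), and *MUP1*, for methionine (0.34 against 2.39), did so likewise. *AGP1*, of broad range, rose in both media, by 4.06 with palatinose and 5.96 in fructose, and *GNP1* fell by 3.41 with palatinose and by 1.80 in fructose. Stationary phase genes, all 20 raised in each medium, and heat shock genes had 0 members whose change differed.

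**Figure D5:**
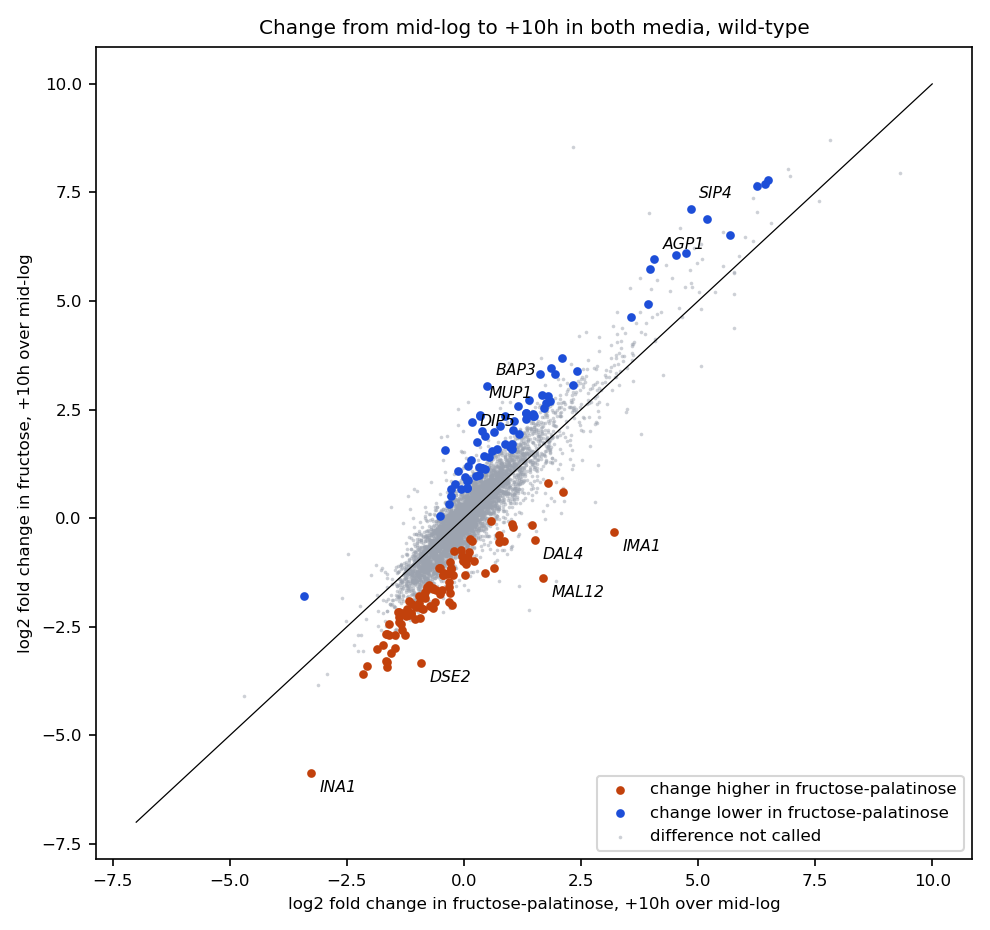
Log2 fold change at +10h over mid-log with palatinose (x axis) and in fructose alone (y axis) for 5479 genes, with the line of equal change and the 170 genes whose change differed between the media in colour. *IMA1* lies at 3.21 and -0.32, far below the line, and *SIP4* at 4.85 and 7.13, above it.

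Against *gal80Δ* cells in the same fructose-palatinose medium, which express the *GAL* genes constitutively, 143 genes (2.61%) differed in their change, 62 (1.13%) with a more positive change in the wild-type and 81 (1.48%) with a more negative one. This comparison shares the 6 wild-type libraries with the comparison of media. Of the 11 palatinose and maltose genes, 4 had a more positive change in the wild-type. *IMA1* changed by 3.21 in the wild-type and had 372, 422 and 430.1 CPM at +10h in *gal80Δ*, against 463, 334 and 368 CPM at mid-log. *IMA5* had 84.1, 96.4 and 90.3 CPM at +10h in the mutant, against 154, 158 and 158 CPM at mid-log, and the changes of the strains differed by 2.25 (adjusted p = 1.22e-08). *YHR210C* had 215, 220.2 and 259.7 CPM at +10h in the wild-type, against 114, 106 and 116 CPM at mid-log, while in *gal80Δ* it had 13.8, 15.3 and 18.1 CPM at +10h, against 107, 128 and 107 CPM at mid-log. The difference of the changes was 3.91.

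Glycolysis stood out in this comparison, in which 7 of 17 genes had a more positive change in the wild-type. *ENO1* had 1369.5, 1092 and 1134 CPM at +10h in the wild-type, against 457, 436 and 456 CPM in *gal80Δ* at +10h, with a difference of the changes of 1.42. *TDH1* differed by 1.62, *ENO2* by 1.57 and *HXK2* by 1.81, and *PDC1* by 1.21. Both *HXT6* (1.28) and *HXT7* (1.68) had a more positive change in the wild-type and *HXT2* a more negative one (-1.33). On the negative side were 8 of the 20 gluconeogenic genes, among them *CRC1* (-2.32) and *MLS1* (-1.44), and *SIP4* (-2.43, not called without replicate B (-1.33) or C (-2.62)). *NEL1*, a relative of the coat protein Sec23, had 1.61, 2.62 and 2.66 CPM at +10h, against 2.09, 1.43 and 1.33 CPM at mid-log in the wild-type, while in the mutant it had 56.9, 60.8 and 53.8 CPM at +10h, against 1.19, 2.04 and 1.60 CPM at mid-log. *YML053C*, uncharacterised, was not called in the wild-type and differed by -2.21. *GAL2* differed by -2.17, a value that includes the high mid-log library B of the wild-type and was not called without any one replicate letter (-2.56 to -1.08). Counts of this comparison moved with the setting: 123 genes had a more positive change when the 4 groups were fitted alone and 97 with DESeq2. When a replicate letter was left out, 13 to 28 genes had a more positive change and 16 to 34 a more negative one. A difference named without a note on replicates may not be called there.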

How the data were processed

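RNA was sequenced from 3′ ends (QuantSeq REV) in 36 libraries, 12 groups of 3. Per the labels and the study's methods, the authors trimmed reads with cutadapt 1.18, aligned them to build R64 with HISAT2 2.1.0 and counted them with featureCounts (Subread 2.0.0) over an annotation they adapted, in which some intervals were extended at the 3′ end. They deposited raw counts per gene, in which replicates were not pooled, and the optical density of each culture. A further column of per-sample values was left unused (1 column). The strand setting of the counting is not given in the sources used here.

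Counts were fitted as deposited with edgeR 4.0.16 (limma 3.58.1, R 4.3.3), using TMM factors, all 36 libraries and the quasi-likelihood test, after filterByExpr kept 5479 genes and left out 218. A gene was called when it changed by more than 0.5 on the log2 scale at a Benjamini-Hochberg adjusted p below 0.05, the thresholds of the study. Differences between media and between strains were interaction contrasts of the same fit. Gene lists are described by counts and medians. The scripts were tested on simulated data. For optical density, exact permutation tests, two-sided, were run in scipy 1.17.1. Uniqueness of 3′ ends was checked with words of 50 bases in the last 300 bases of each interval. A word counted as shared when it occurred elsewhere in the genome on either strand, in a gene or not. Overlaps of intervals are given above for some genes only. Others include *COX8* with *VPS33* (588 bases) and *IDP2* with *TAG1* (339) on the same strand. On opposite strands they include *SSA1* with *YAL004W* (2304), *AHP1* with *CCW12* (1402), *TRX2* with *SER2* (1223) and *YHR210C* with *CRG1* (422).

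Named genes were the 10 raised most and 10 lowered most with at least 20 CPM, in each list the 2 most abundant members and the called members that changed most, all pairs of related genes, the 5 largest differences in each direction between media and strains, and all palatinose, maltose and carbon regulator genes. Genes named outside this rule were chosen after their values were seen or for the motifs in their promoters. The members, lists and tests were chosen with earlier results of these data known.

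Samples carry letters in their labels, and whether a letter marks the same flask at both times is not stated. Deviations from the group means correlated between the times at 0.315 (A), 0.123 (B) and 0.371 (C) for same letters. Library B at +10h correlated with mid-log library A at 0.13, so these values do not show a pairing for B. The letters were used as pairs only in alternative fits with a block, and the calls given come from the fit without it. In fructose the same correlations were 0.656, 0.0793 and -0.591, and the letters do not pair there. A fit with the letter as a block was run over all libraries. Other alternatives were scaling by library size, DESeq2 1.42.0, other filters, folds and sets of libraries, and leaving out each letter.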

Additional observations from a re-analysis of the deposited data

Results flagged for a closer look

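The change from mid-log to +10h with palatinose differed from the change in fructose alone for 170 genes in edgeR's test of the difference (adjusted p below 0.05). Among the genes named here the difference of the log2 fold changes, palatinose minus fructose, was positive for *IMA1* (3.53), *MAL12* (3.07), *INA1* (2.61), *DSE2* (2.42), *DAL4* (2.01), *RNR1* (1.75), *MEP2* (1.69), *IMA5* (1.62), *BAR1* (1.6), *IMD2* (1.54), *MAL11* (1.52), *SFG1* (1.43), *YHR210C* (1.26), *HTA2* (1.2), *DAL7* (1.06), *HXK2* (1.02), *ENO2* (1.0), *POL1* (0.97), *GDH1* (0.94), *TEF4* (0.87) and *SAM2* (0.84). These include the isomaltase, maltase and α-glucoside carrier genes, genes of DNA synthesis and histones, and genes of nitrogen source use. It was negative for *BAP3* (-2.56), *SIP4* (-2.28), *DIP5* (-2.06), *MUP1* (-2.05), *AGP1* (-1.9), *CRC1* (-1.7), *GNP1* (-1.61), *NDE2* (-1.54), *SFC1* (-1.38), *PCK1* (-1.3), *MLS1* (-1.25) and *ICL1* (-0.83). These include amino acid permeases and genes of gluconeogenesis and its activator. The counts depend on single libraries, as given with the other settings. Without replicate B, 10 genes in all were more positive and 10 more negative, fewer than are named here. Many of these single differences are therefore not called in that setting.

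The change in the wild-type differed from that in *gal80Δ* in the same medium for 143 genes. The difference, wild-type minus *gal80Δ*, was positive for *YHR210C* (3.91), *IMA1* (3.14), *MAL12* (3.0), *IMA5* (2.25), *YFR052C-A* (2.19), *UGA4* (2.13), *DAL4* (2.06), *INA1* (2.03), *HXK2* (1.81), *HXT7* (1.68), *TDH1* (1.62), *MEP2* (1.6), *ENO2* (1.57), *RNR1* (1.53), *MAL11* (1.51), *ENO1* (1.42), *HSP82* (1.36), *PET9* (1.29), *DAL7* (1.28), *HXT6* (1.28), *PDC1* (1.21), *GDH1* (1.11), *ACO1* (0.92), *HTA2* (0.84), *HSC82* (0.82) and *HHF1* (0.8). These include palatinose genes, glycolytic genes and the transporters *HXT6* and *HXT7*, whose 3′ ends hold words that also occur elsewhere in the genome. It was negative for *NEL1* (-4.61), *SIP4* (-2.43), *CRC1* (-2.32), *YML053C* (-2.21), *GAL2* (-2.17), *DIP5* (-2.09), *MUP1* (-1.75), *SFC1* (-1.64), *NDE2* (-1.55), *MLS1* (-1.44), *HXT2* (-1.33), *AGP1* (-1.28), *ICL1* (-1.22), *ERT1* (-1.01) and *GNP1* (-0.86). Both sets of differences use the same 6 wild-type libraries, and the value of *GAL2* includes the high mid-log library B. Without replicate B, 13 genes in all had a more positive change in the wild-type, fewer than are named here.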

How the results depend on the processing

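With a minimum log2 fold change of 1, 755 genes rose and 344 fell with palatinose, 942 rose and 726 fell in fructose, the changes of 56 genes were more positive and 37 more negative with palatinose than in fructose, and 37 and 47 were so in the wild-type against *gal80Δ*. Scaling by library size gave 654 lowered genes with palatinose and 837 in fructose. Fitting only the groups compared gave 36 and 17 genes for the media and 123 more positive for the strains. DESeq2 gave 97 more positive for the strains. Leaving out one letter at a time gave 1206 to 1224 raised and 1024 to 1057 lowered genes with palatinose, 10 to 66 and 9 to 57 for the media, and 13 to 28 and 16 to 34 for the strains. *GAL2* had 0.157 without replicate B, against -0.93 in all libraries and -1.40 without replicate C. With the replicate block 1339 genes rose and 1154 fell, and the block changed 0 of the 228 named calls. It moved 3 of the list counts, to 15 raised peroxisome genes, 8 raised hexose transporter genes and 118 lowered ribosome assembly genes. In the smaller fits with the replicate block, 28 and 13 genes differed between the media and 105 were more positive between the strains, and 1 named call was lost and 6 were gained. Alternatives chosen after seeing the data left out mid-log library C, with 76 more positive and 48 more negative genes for the media, and fructose +10h library B, with 40 more negative for the media and 109 more positive and 120 more negative for the strains. Of the 228 named calls, 189 held under library size scaling, 225 under DESeq2 and 209, 215 and 210 without letters A, B and C. Depth limits genes near 3 counts, and small falls depend on the scaling; the cause of these shifts was not tested.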

Other observations

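Biosynthetic lists outside the comparisons above moved in both directions or little. Of 58 amino acid synthesis genes, 12 rose and 10 fell, shares of 20.7% and 17.2%, near the 24.5% and 21.2% of all genes. Their median was -0.12, and 0.13 when libraries were scaled by size. *PRO3*, the last enzyme of proline synthesis, had 598, 686 and 677 CPM at +10h, against 1602, 1508 and 1847 CPM at mid-log (log2 fold change -1.34), and *GCN4*, the activator of these genes, was not called (0.44). Of 23 genes of sulphur use, 7 rose and 8 fell, shares of 30.4% and 34.8%. *STR3*, cystathionine β-lyase, had 43.8, 29.5 and 26.5 CPM at +10h, against 4.88, 10.4 and 4.44 CPM at mid-log, and *SAM2*, S-adenosylmethionine synthetase, had 253, 196 and 206 CPM at +10h, against 645, 644 and 705 CPM at mid-log, without overlap of the times for either. *MET6*, methionine synthase, fell by 0.69 (-0.58 and not called without replicate B), and *MET17*, which fixes sulphide, was not called (-0.35). In purine synthesis 7 of 17 genes fell (41.2%, beside 21.2% of all genes) and 0 rose, led by *IMD2*, IMP dehydrogenase (-1.57), followed by *SHM2*, cytosolic serine hydroxymethyltransferase (-0.84).

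Of 23 iron regulon genes, 7 rose and 4 fell, shares of 30.4% and 17.4% beside 24.5% and 21.2% of all genes. *FIT1*, a cell wall mannoprotein that holds siderophores, had 33, 29.4 and 26.5 CPM at +10h, against 6.45, 4.64 and 10.4 CPM at mid-log (2.03), while the ferroxidase gene *FET3*, with 237, 186 and 197 CPM at +10h, against 456, 444 and 514 CPM at mid-log, and its partner permease gene *FTR1* fell by 1.19 and 0.76. Of 14 phosphate genes, 4 rose and 1 fell, shares of 28.6% and 7.14%. *PHM8*, a nucleotide phosphatase, had 80.1, 85.2 and 72 CPM at +10h, against 1.39, 1.07 and 1.78 CPM at mid-log (5.77) and overlaps *KRE29* on the opposite strand over 1019 bases. *VTC1*, of the polyphosphate polymerase, fell by 0.52, a call that was lost without replicate A (-0.35). Ergosterol genes rose in 2 and fell in 6 of 25 cases, shares of 8% and 24%. *ERG3*, the C-5 desaturase, was raised (1.24) and *ERG6*, the C-24 methyltransferase, lowered (-0.98). Of 6 *GAL* genes 2 (33.3%, beside 24.5% of all genes) rose, among them *GAL3*, the galactose sensor (1.00).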
